A study of Mus musculus with 6 samples.

Results

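The 10 genes described here belong to the BCL2 family, whose proteins decide at the outer membrane of the mitochondrion whether a cell starts apoptosis. They were chosen by name, as rows of the deposited RNA-seq table whose gene symbol is *Bcl2*, *Bcl2l1*, *Mcl1*, *Bax*, *Bak1*, *Bid*, *Bcl2l11*, *Bbc3*, *Pmaip1* or *Bmf*. All 10 had a row among the 25140 genes listed, and all 10 were among the 14334 genes tested.

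The family has 3 kinds of member. The anti-apoptotic proteins BCL-2 (*Bcl2*), BCL-XL (*Bcl2l1*) and MCL-1 (*Mcl1*) hold the others in check. The effectors BAX and BAK (*Bak1*) form the pore through which cytochrome c leaves the mitochondrion. The BH3-only proteins BIM (*Bcl2l11*), PUMA (*Bbc3*), NOXA (*Pmaip1*), BID and BMF carry death signals from other parts of the cell, by binding the anti-apoptotic proteins, the effectors or both. Many are controlled after transcription, through protein turnover, phosphorylation or cleavage, which mRNA counts do not show. Myofibroblasts, the contractile cells that fibroblasts become in healing and fibrosis, are known to be cleared by apoptosis when a wound resolves.

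The series examines transcription in fibroblasts that turn into myofibroblasts. The labels describe primary cardiac fibroblasts of the C57BL/6 mouse strain, taken from adult heart, with no genetic change named. The cells were used at passage 1 in medium with 25 mM glucose. The study's methods also name cardiac fibroblasts, while its results call the sequenced cells wild-type embryonic fibroblasts (MEFs). Serum was lowered to 1% FBS in both groups, and 16 h later the cells received vehicle (3 libraries) or 10 ng/ml TGFβ, a growth factor that drives this differentiation (3 libraries), for 24 h. The study's methods put the change of serum 24 h before treatment. The vehicle libraries held 31072338, 29296570 and 29331999 counts and the TGFβ libraries 27851677, 28894151 and 28641986, and each library is named by its total, because the columns of counts carry no replicate number. The study's methods speak of biological replicates, and neither they nor the labels say whether these came from separate mice.

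The libraries carried the markers of heart fibroblasts, many of which were lower with TGFβ. *Col1a1* stood at 19992 ± 1515 CPM (the usual depth-scaled count, here with TMM-scaled library sizes; SD, n = 3 libraries in each group, here and throughout) with vehicle, and *Tcf21* and *Tbx20*, factors of the cardiac fibroblast, at 303 ± 3.54 and 605 ± 72.8 CPM. With TGFβ *Tcf21* was at 147 ± 2.05 and *Tbx20* at 419 ± 20.1 CPM, and 7 of 9 fibroblast markers and 3 of 5 markers of heart origin were called lower by edgeR, none higher. Genes of other cells were present too, some of them well above *Bcl2* or *Pmaip1*, such as the endothelial gene *Cdh5* at 200.1 CPM and the myeloid gene *Lyz2* at 232 CPM with vehicle. The 8 endothelial markers summed to 462 to 716 CPM with vehicle and 423 to 586 CPM with TGFβ, the 7 leukocyte markers in the table to 241 to 344 and 209 to 312 CPM, and the 5 mesothelial markers to 24.1 to 85.1 and 15.2 to 41.3 CPM, highest in the vehicle library of 31072338 counts. The cardiomyocyte markers summed to 38.7 to 60.1 CPM with vehicle and 27.6 to 40.8 CPM with TGFβ. Most of this was *Tnnt2*, with means of 46.7 and 34.0 CPM. The cardiomyocyte genes *Myh6*, *Ryr2* and *Pln* and the B cell gene *Cd79a* had 0 to 16 counts in any library. Of the 22 endothelial, leukocyte, cardiomyocyte and mesothelial markers tested, edgeR and limma-voom called 0 between the groups and DESeq2 1, *Tnnt2*, while *Tnnt2* and *Upk3b* had an unadjusted edgeR p under 0.05. The 8 smooth muscle and pericyte markers summed to 1447 to 1517 CPM with vehicle and 1456 to 1484 CPM with TGFβ. Most of this was *Pdgfrb*, with means of 1124 and 1204 CPM, while *Myh11* had 27.8 and 23.3 CPM. Of the 8 markers 2 were called higher, *Smtn* and *Cspg4* (log2 fold changes 0.29 and 1.45), and 1 lower, *Notch3* (-1.85). The part of these shifts in the members' values was not tested. *Postn*, the periostin gene of activated fibroblasts, rose with TGFβ (log2 fold change 1.55), while 4 of 7 proliferation genes fell, *Mki67* from 29.8 to 15.0 CPM.

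With TGFβ, 6 of the 10 family genes changed: *Pmaip1* and *Bak1* were higher, and *Bcl2*, *Bcl2l1*, *Mcl1* and *Bmf* were lower (edgeR quasi-likelihood test, Benjamini-Hochberg adjusted p under 0.05 over all genes tested). Over all genes tested 40.7% were called, 20.5% higher and 20.1% lower, so calls are common in this comparison. The groups did not overlap for 7 of the 10 members, against 53.3% of all genes tested. Most members moved little. Their median absolute log2 fold change was 0.18 and that of all genes tested 0.21, and their median log2 fold change was -0.11, beside -0.0013 for all genes. *Pmaip1* and *Bcl2* stood apart by size: only 1.16% of all genes tested had an absolute log2 fold change as large as that of *Pmaip1*, and 8.85% one as large as that of *Bcl2*. No bulk value can tell fewer cells of a type from less RNA per cell.

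**Figure D1:**
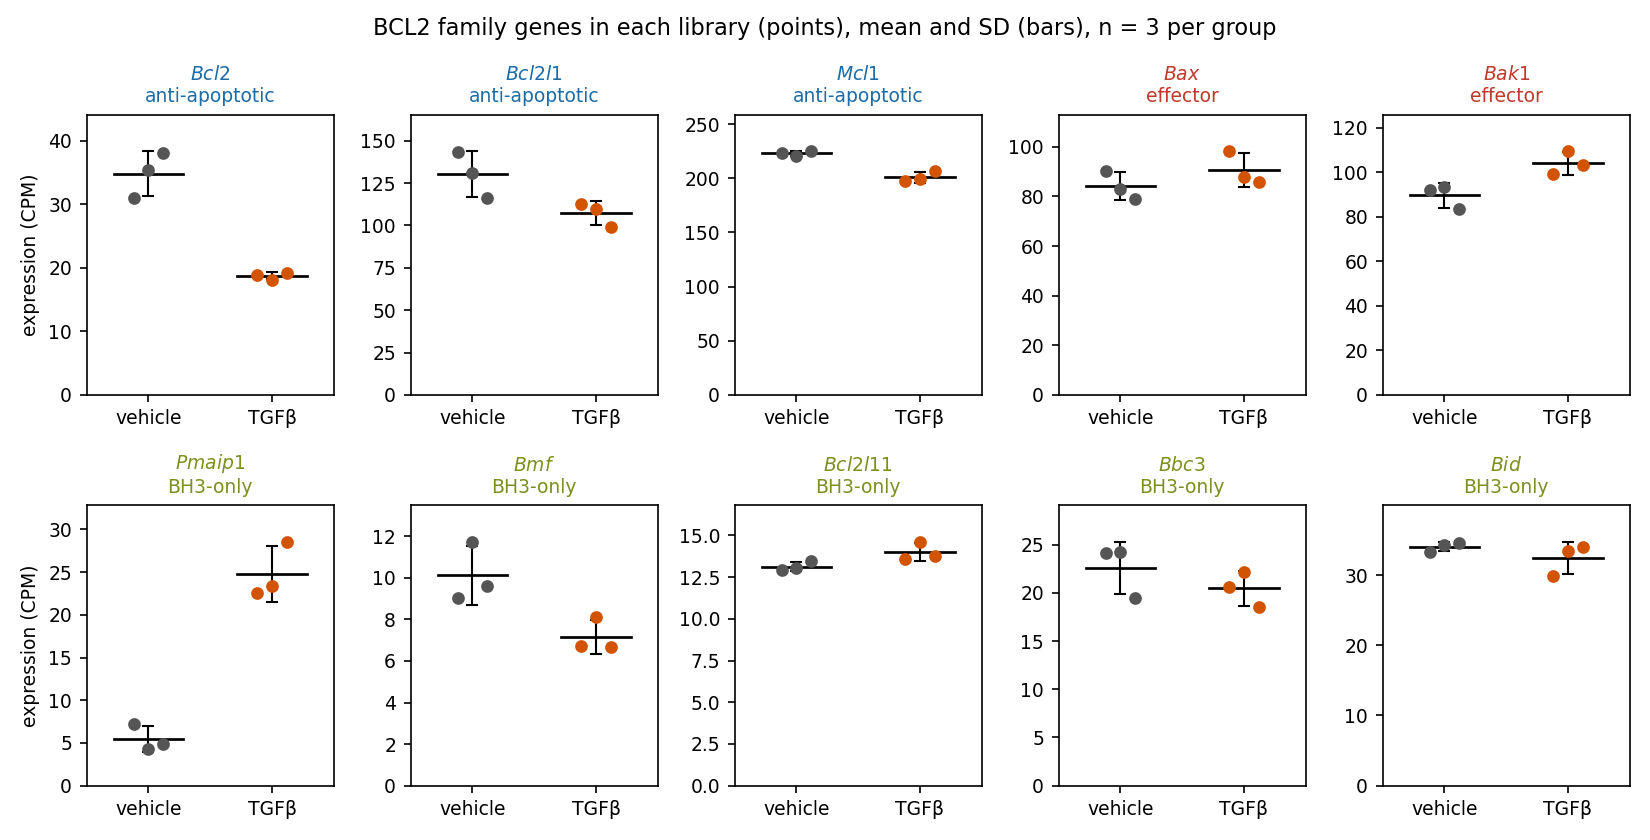
Expression of each of the 10 members in every library, as CPM scaled with TMM factors (points: the 3 vehicle and 3 TGFβ libraries, horizontal lines: group means, bars: SD). The TGFβ libraries lie wholly above the vehicle libraries for *Pmaip1* (22.6 to 28.6 against 4.32 to 7.23 CPM) and wholly below them for *Bcl2* (18.1 to 19.2 against 31.0 to 38.0 CPM), while *Bax*, *Bid* and *Bbc3* overlap.

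Transcription of these genes starts at promoters that differ much in base composition. The 250 bases before an annotated RefSeq start (assembly GRCm38.p6) are shown for 3 members that fell, *Bcl2*, *Mcl1* and *Bmf*, because each holds a different outcome of the same search. It covered both strands for 4 motifs: the CRE core TGACGT, the FOXO motif GTAAACA, the E-box CACGTG and the SMAD box CAGACA, which reads TGTCTG on the other strand. Capitals mark matches. The *Bcl2* window (chr1:106714291-106714540, minus strand) holds 1 CRE core, the *Mcl1* window (chr3:95658471-95658720, plus strand) no match, and the *Bmf* window (chr2:118544588-118544837, minus strand), which belongs to 1 of 3 annotated starts, 2 adjacent SMAD boxes.
Bcl2: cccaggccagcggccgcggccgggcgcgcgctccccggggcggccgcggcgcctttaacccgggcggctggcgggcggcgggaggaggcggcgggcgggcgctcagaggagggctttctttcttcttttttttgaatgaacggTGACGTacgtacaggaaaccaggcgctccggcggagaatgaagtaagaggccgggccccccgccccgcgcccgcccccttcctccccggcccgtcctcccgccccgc
Mcl1: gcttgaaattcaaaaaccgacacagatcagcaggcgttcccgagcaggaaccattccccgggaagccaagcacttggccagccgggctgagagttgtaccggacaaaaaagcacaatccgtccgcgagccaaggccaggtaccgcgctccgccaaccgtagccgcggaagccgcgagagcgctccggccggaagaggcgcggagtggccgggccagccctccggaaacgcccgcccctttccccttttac
Bmf: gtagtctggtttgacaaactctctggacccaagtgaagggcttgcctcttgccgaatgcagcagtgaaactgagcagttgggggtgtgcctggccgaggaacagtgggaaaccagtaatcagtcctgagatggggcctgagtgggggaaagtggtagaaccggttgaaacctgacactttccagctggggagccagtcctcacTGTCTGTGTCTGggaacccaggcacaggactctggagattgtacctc

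The windows of *Bcl2*, *Mcl1* and *Bmf* are 74.8%, 64.4% and 55.6% G or C. Among 32536 windows of the same length, 6.50% hold the CRE core, 3.17% the FOXO motif, 6.04% the E-box and 17.0% the SMAD box, and a match shows only that the letters are there. Entries were found for 9 members, and none for *Pmaip1*. Besides those shown, the window of *Bak1* holds 1 SMAD box and that of *Bax* 1 E-box, 1 of the 2 *Bcl2l11* windows holds 1 FOXO motif, and of the 3 *Bbc3* windows 1 holds a FOXO motif with a SMAD box and another an E-box. The windows of *Bcl2l1* and *Bid* hold none of the 4 motifs. Nor do the other *Bmf* windows, from 118549687 and 118547600. Some windows overlap annotated exons: that of *Bak1*, that of *Bid* by 29 bases, and the *Bcl2l1* windows from 152828490 and 152830718 by 250 bases each.

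*Bcl2* (ENSMUSG00000057329), the founding survival gene of the family, fell the most of the members on the log2 scale. Its annotated span is chromosome 1, 106538178 to 106714274, minus strand (GENCODE M21 on GRCm38, the mm10 build, as for all positions below). In the order of totals given above, 986, 1051 and 1133 reads were counted on it with vehicle and 517, 506 and 548 with TGFβ. These correspond to 31.0, 35.4 and 38.0 CPM with vehicle and 18.9, 18.1 and 19.2 CPM with TGFβ. Every TGFβ library was below every vehicle library, and the TGFβ libraries lay much closer together than the vehicle libraries. The mean fell by 46.1%, from 34.8 ± 3.54 to 18.7 ± 0.566 CPM (log2 fold change -0.89, standard error 0.08, adjusted p = 0.000124 by edgeR), and the call held in all 12 alternative fits. Within each group *Bcl2* was highest in the library with the most endothelial marker RNA, the vehicle library of 29331999 counts (716 CPM summed) and the TGFβ library of 28641986 counts (586 CPM). The same libraries were also the highest of their groups for leukocyte markers (344 and 312 CPM summed). The TGFβ libraries of 27851677 and 28894151 counts had 423 and 474 CPM of endothelial markers, with *Bcl2* at 18.9 and 18.1 CPM. The part of endothelial or leukocyte RNA in the *Bcl2* values was not tested.

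*Bcl2l1* (ENSMUSG00000007659; chromosome 2, 152780668 to 152831728, minus strand), which encodes BCL-XL, fell less on the log2 scale. It had 144, 131 and 116 CPM with vehicle and 112, 109.8 and 99.1 CPM with TGFβ. All TGFβ values were below all vehicle values, but the vehicle library of 29331999 counts and the TGFβ library of 27851677 counts nearly met. The mean fell by 17.8%, from 130.3 ± 13.6 to 107 ± 7.11 CPM (log2 fold change -0.28, standard error 0.08, adjusted p = 0.0271 by edgeR). Of the vehicle libraries, leaving out that of 31072338 or that of 29296570 counts ended the call (adjusted p by edgeR of 0.0744 and 0.0724), and so did leaving out the TGFβ library of 28894151 counts (0.0529) or 28641986 counts (0.063).

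*Mcl1* (ENSMUSG00000038612; chromosome 3, 95658788 to 95663176, plus strand) encodes MCL-1, a survival protein with a very short life. It was the most counted member, with 7100, 6540 and 6710 reads with vehicle and 5400, 5555 and 5893 with TGFβ. The CPM values were 223, 221 and 225 with vehicle and 197, 199 and 207 with TGFβ. The replicates of each group lay close together and the groups did not overlap, so that a small difference passed the test. The mean fell by 9.80%, from 223 ± 2.23 to 201 ± 4.99 CPM (log2 fold change -0.15, standard error 0.04, adjusted p = 0.017 by edgeR). Leaving out the vehicle library of 29296570 counts ended the call (adjusted p = 0.0525 by edgeR), as did leaving out the TGFβ library of 27851677 counts (0.0583) or 28894151 counts (0.0656). The 3 anti-apoptotic genes among the 10 members thus all had lower mRNA levels with TGFβ, *Bcl2* by far the most on the log2 scale.

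**Figure D2:**
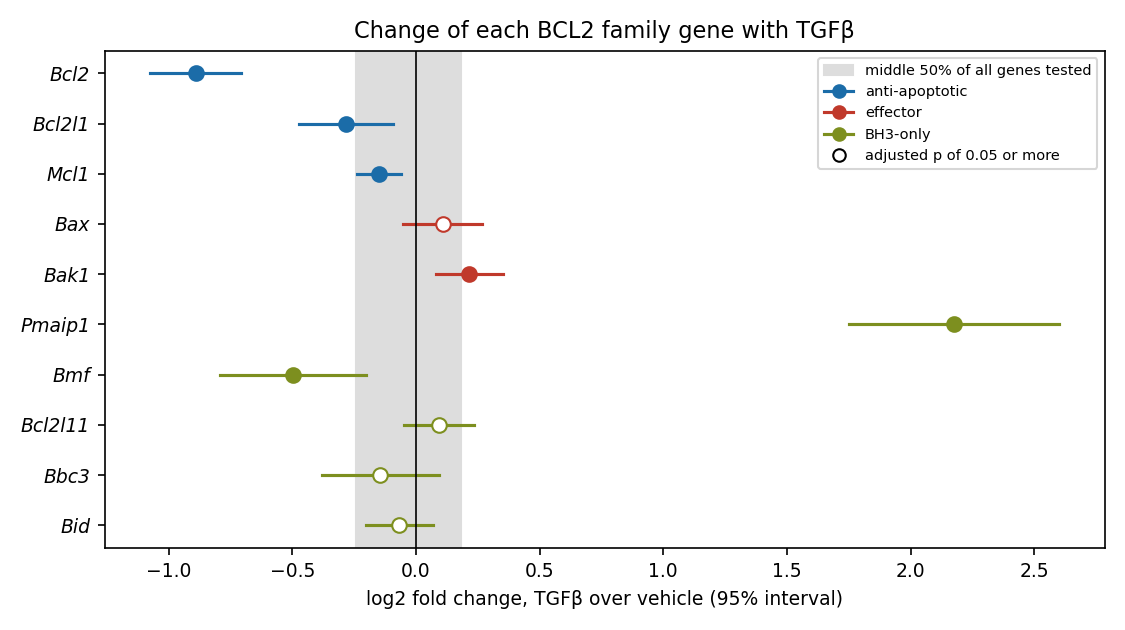
Log2 fold change (TGFβ over vehicle) of the 10 members by role, with 95% confidence intervals from the edgeR fit (open points: not called, grey band: the middle 50% of all genes tested, -0.24 to 0.18). *Pmaip1* lies at 2.18 and *Bcl2* at -0.89, and the other 8 members lie between -0.50 and 0.22.

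The effectors went the other way or did not pass the test. *Bak1* (ENSMUSG00000057789; chromosome 17, 27019810 to 27029009, minus strand), which encodes BAK, had 92.1, 93.6 and 83.3 CPM with vehicle and 99.4, 109.5 and 103 CPM with TGFβ. The TGFβ libraries all lay above the vehicle libraries. The mean rose from 89.6 ± 5.54 to 104 ± 5.11 CPM (log2 fold change 0.22, standard error 0.06, adjusted p = 0.0199 by edgeR), and the call was lost without the TGFβ library of 28894151 counts (0.0719). Of the 75-base windows of its longest transcript 14.1% also occur in transcripts of other genes, chiefly *Ggnbp1* on the opposite strand, which had 1.39% as many counts.

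*Bax* (ENSMUSG00000003873; chromosome 7, 45461697 to 45466898, minus strand) had 90.3, 83.0 and 79.1 CPM with vehicle and 98.3, 88.0 and 85.7 CPM with TGFβ. The groups overlapped, since the vehicle library of 31072338 counts stood above 2 of the TGFβ libraries. The means were 84.1 ± 5.67 and 90.7 ± 6.72 CPM (log2 fold change 0.11, 95% interval -0.05 to 0.27, adjusted p = 0.249 by edgeR).

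Of the BH3-only genes, *Pmaip1* showed the largest difference in the family. *Pmaip1* (ENSMUSG00000024521; chromosome 18, 66458533 to 66465565, plus strand) encodes NOXA, which binds chiefly MCL-1 and promotes its breakdown. It had 230, 128 and 145 counts with vehicle and 617, 652 and 814 with TGFβ. In CPM these were 7.23, 4.32 and 4.86 with vehicle and 22.6, 23.3 and 28.6 with TGFβ. The lowest TGFβ library was far above the highest vehicle library. The mean rose 4.54-fold, from 5.47 ± 1.55 to 24.8 ± 3.26 CPM (log2 fold change 2.18, standard error 0.18, adjusted p = 9.94e-05 by edgeR), and the call held in all 12 alternative fits. Its vehicle counts were the lowest of any member, with a counting error of 8.84% at 128 counts. The vehicle library of 31072338 counts, the highest of its group for *Pmaip1*, was also the highest for mesothelial markers (85.1 CPM summed, against 24.1 and 32.5). The TGFβ libraries had 41.3, 15.2 and 17.7 CPM of these markers. Leaving that vehicle library out gave a *Pmaip1* log2 fold change of 2.43.

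*Bmf* (ENSMUSG00000040093; chromosome 2, 118528757 to 118549687, minus strand), a BH3-only gene whose protein is known to be held at the cytoskeleton, moved in the opposite direction. It had 9.05, 11.7 and 9.59 CPM with vehicle and 6.73, 8.09 and 6.66 CPM with TGFβ. The groups did not overlap. The mean fell by 29.3%, from 10.1 ± 1.42 to 7.16 ± 0.808 CPM (log2 fold change -0.50, standard error 0.13, adjusted p = 0.0159 by edgeR), and the call was lost without the TGFβ library of 27851677 counts (0.0581).

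*Bcl2l11* (ENSMUSG00000027381; chromosome 2, 128126038 to 128162547, plus strand) encodes BIM, a BH3-only protein with wide binding to the survival proteins. It had 12.9, 13.0 and 13.4 CPM with vehicle and 13.6, 14.6 and 13.8 CPM with TGFβ. The groups did not overlap, but the values were close. The log2 fold change of 0.09 had a 95% interval of -0.05 to 0.23 and did not pass the test (adjusted p = 0.267 by edgeR).

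*Bbc3* (ENSMUSG00000002083; chromosome 7, 16308393 to 16318205, plus strand) encodes PUMA, like NOXA the product of a known p53 target gene. It had 24.1, 24.2 and 19.5 CPM with vehicle and 20.6, 22.2 and 18.6 CPM with TGFβ. The groups overlapped and *Bbc3* did not pass the test (log2 fold change -0.14, 95% interval -0.38 to 0.09, adjusted p = 0.296 by edgeR). *Bid* (ENSMUSG00000004446; chromosome 6, 120891930 to 120916853, minus strand), whose protein is cut by caspase-8 to link death receptors to mitochondria, had 33.3, 34.3 and 34.6 CPM with vehicle and 29.9, 33.5 and 34.1 CPM with TGFβ. The groups overlapped here too (log2 fold change -0.07, 95% interval -0.20 to 0.07, adjusted p = 0.388 by edgeR). The *Bid* values are uncertain, because 23.7% of its 75-base windows are shared with *Bcl2l13* on the opposite strand, a gene with 119% as many counts, and whether the counting used strand is not given in the sources used here.

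For the 4 members not called, *Bax*, *Bcl2l11*, *Bbc3* and *Bid*, the 95% intervals lay within 0.4 of 0 on the log2 scale. In two-sided exact permutation tests of the CPM values, the 7 members without overlap each had p = 0.1 and *Bax*, *Bid* and *Bbc3* p = 0.3. With 3 libraries a group such a test cannot go below 0.1.

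**Figure D3:**
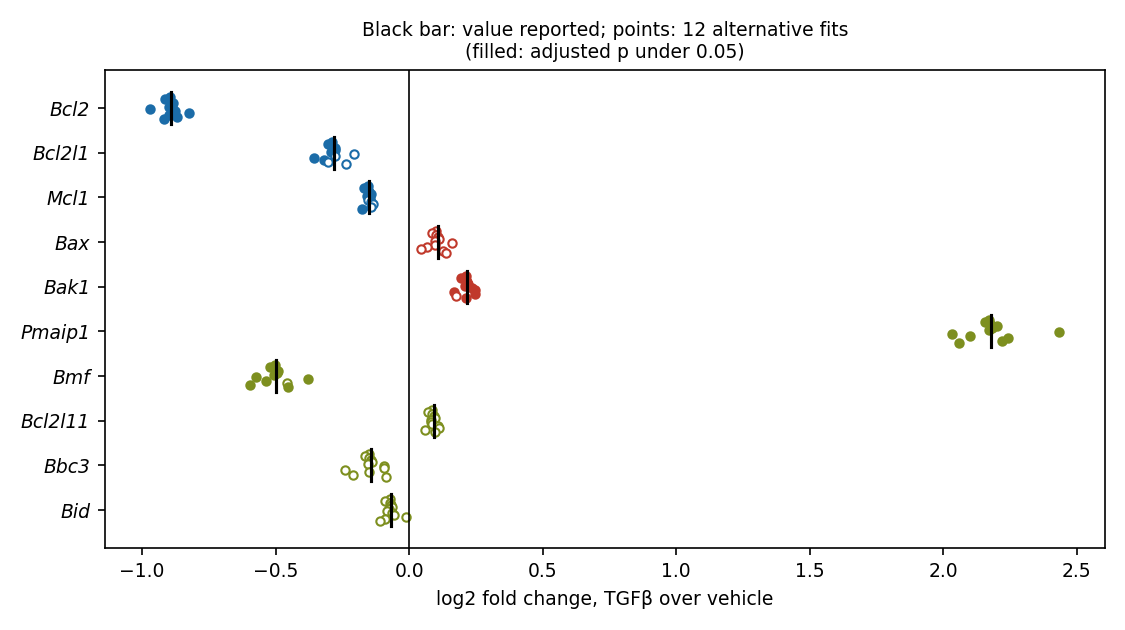
Log2 fold change of each member in the 12 alternative fits, which change the scaling, the tool, the filter or leave out 1 library (filled points: adjusted p under 0.05, open points: not, black bar: the reported value). *Pmaip1* spans 2.03 to 2.43 and *Bcl2* -0.97 to -0.82 with a library left out and stay filled throughout, while *Bcl2l1*, *Mcl1*, *Bak1* and *Bmf* have open points.

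Levels were compared between members per kilobase of annotated exon (CPM per kb). With vehicle, *Mcl1* was the highest at 65.2 ± 0.653, followed by *Bax* at 53.4 ± 3.60, *Bak1* at 37.2 ± 2.30 and *Bcl2l1* at 28.4 ± 2.97 CPM per kb. *Bbc3* and *Bid* came next at 10.6 ± 1.26 and 9.60 ± 0.192 CPM per kb and did not differ beyond their spread. *Bcl2* stood at 3.80 ± 0.387 CPM per kb. The lowest were *Pmaip1* at 2.00 ± 0.567, *Bmf* at 1.93 ± 0.270 and *Bcl2l11* at 1.63 ± 0.0349 CPM per kb, of which the values of *Pmaip1* overlapped with both others. Thus *Bcl2*, the anti-apoptotic member that moved the most on the log2 scale, was the lowest of the 3 anti-apoptotic members in these cells.

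Per kilobase of annotated exon, the upper part of the order stayed with TGFβ. *Mcl1* at 58.8 ± 1.46 and *Bax* at 57.5 ± 4.26 CPM per kb now overlapped, followed by *Bak1* at 43.3 ± 2.12 and *Bcl2l1* at 23.4 ± 1.55 CPM per kb. *Pmaip1* reached 9.08 ± 1.19 CPM per kb, which its spread did not separate from *Bbc3* at 9.63 ± 0.861 or *Bid* at 9.15 ± 0.635. *Bcl2* at 2.05 ± 0.0618, *Bcl2l11* at 1.74 ± 0.0680 and *Bmf* at 1.36 ± 0.154 CPM per kb closed the order. *Pmaip1* moved from rank 8 to rank 7 and *Bcl2* from rank 7 to rank 8. With the longest transcript as the length they moved from 10 to 7 and from 7 to 9. By that length *Bcl2l1* (50.7 CPM per kb) stood above *Bak1* (37.6) with vehicle and below it with TGFβ (41.7 and 43.6).

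Summed by role, and given as a description with no test, the anti-apoptotic genes made up 45.0%, 45.1% and 46.6% of the members' level per kilobase with vehicle and 38.8%, 38.7% and 39.5% with TGFβ. The groups did not overlap. The sum of the 3 anti-apoptotic genes was 97.4 ± 2.35 CPM per kb with vehicle and 84.2 ± 0.112 with TGFβ. On this scale *Mcl1* went from 65.2 to 58.8, *Bcl2l1* from 28.4 to 23.4 and *Bcl2* from 3.80 to 2.05 CPM per kb. *Bcl2* thus moved the least of the 3 in this sum. The effectors' share was 42.4% ± 0.770 and 46.7% ± 1.03, and that of the BH3-only genes 12.1% ± 0.238 and 14.3% ± 0.737. The BH3-only sum was 25.8 ± 1.38 CPM per kb with vehicle and 31.0 ± 1.40 with TGFβ, a smaller difference than that of *Pmaip1* alone, so the other 4 BH3-only genes together had a lower sum with TGFβ. With the longest transcript as the length, the anti-apoptotic share ranged from 44.7% to 45.7% with vehicle and from 38.4% to 38.8% with TGFβ.

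**Figure D4:**
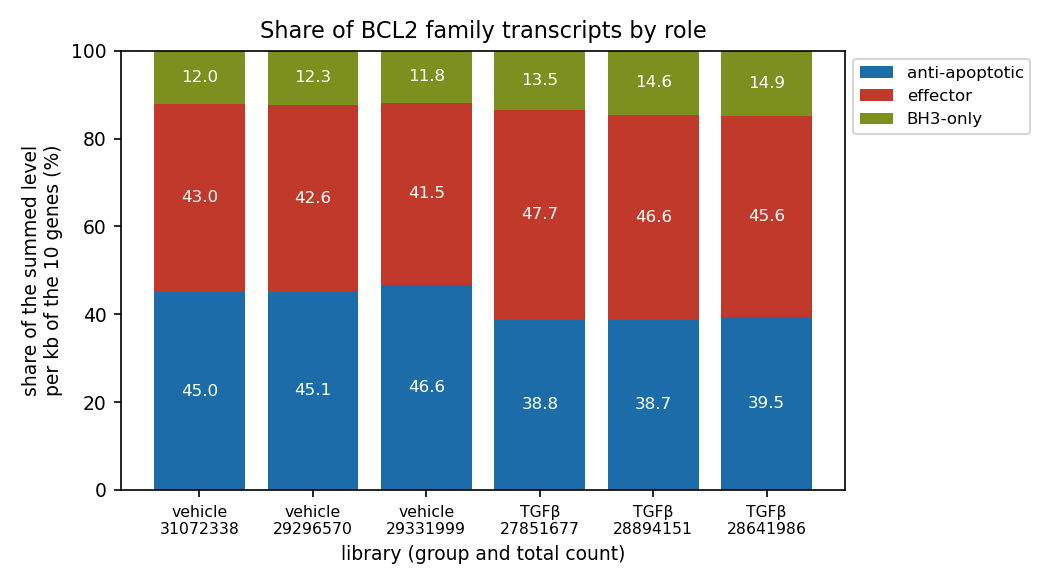
Share of the members' summed level (CPM per kb of exon) held by each role in every library. The anti-apoptotic share is 45.0% to 46.6% with vehicle and 38.7% to 39.5% with TGFβ, and both other roles take larger mean shares with TGFβ.

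Ratios within a library do not depend on its scaling. The counts of *Bax* per count of *Bcl2*, a ratio of a death to a survival gene in wide use, were 2.91, 2.34 and 2.08 with vehicle and 5.20, 4.86 and 4.46 with TGFβ. The ratio was higher in every TGFβ library, with means of 2.45 ± 0.425 and 4.84 ± 0.373. Of the pair, *Bcl2* fell and *Bax* did not pass the test. Counts of *Pmaip1* per 100 counts of *Mcl1*, a pair chosen after its values were seen, were 3.24, 1.96 and 2.16 with vehicle and 11.4, 11.7 and 13.8 with TGFβ. These groups did not overlap either. Neither ratio was tested.

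The genes whose pattern over the 6 libraries was most like that of *Pmaip1*, by Pearson's r of log2 CPM among 10372 genes, were *Psma4* (r = 0.9991), *Ddx39* (0.9988) and *Dynll1* (0.9985). For *Bcl2* they were *Adhfe1* (0.9985), *Cgnl1* (0.9981) and *Arfrp1* (0.9977). Pearson's r does not compare the size of a change. The log2 fold changes of the first 3 were 0.33, 0.66 and 0.39, beside 2.18 for *Pmaip1*. Those of the other 3 were -2.22, -1.36 and -0.26, beside -0.89 for *Bcl2*. These values describe 6 points that fall into 2 groups and share the libraries, and 1175 and 848 genes had an r above 0.95 with *Pmaip1* and *Bcl2*.

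Of the rest of the BCL2 family, 14 genes had a row and 8 were tested, of which 1 was called higher and 2 lower (median log2 fold change 0.01). The share called was 37.5%, beside 40.7% of all genes tested. *Bok*, which encodes a further effector, rose from 20.2 to 26.1 CPM (log2 fold change 0.37, adjusted p = 0.0131 by edgeR). *Bad*, a BH3-only gene whose protein is silenced by phosphorylation, fell by 0.24 on the log2 scale (adjusted p = 0.0315 by edgeR), a call lost on leaving out any library but the vehicle library of 29331999 counts (adjusted p up to 0.0996). *Bnip3l*, an outer membrane protein with a role in mitophagy, fell by 0.27 on the log2 scale, from 98.2 to 81.6 CPM (adjusted p = 0.00184 by edgeR). *Bcl2l2*, which encodes a further anti-apoptotic protein, had 51.2 CPM with vehicle and 52.3 with TGFβ (log2 fold change 0.03, adjusted p = 0.676 by edgeR). *Bok* and *Bcl2l2* are not in the shares by role given above. *Bcl2l2*, *Bik*, *Bnip3*, *Bcl2l12* and *Bcl2l13* did not pass the test, although *Bik*, at 1.24 CPM with vehicle and 0.915 with TGFβ, passed it without the TGFβ library of 28641986 counts (adjusted p = 0.0356 by edgeR). *Bcl2a1a*, *Bcl2a1b* and *Bcl2a1d*, near-identical copies, and *Hrk*, *Bcl2l14* and *Bcl2l15* had too few counts to be tested.

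The regulators of these genes were described by the same counts, read beside the 40.7% of all genes tested that were called. The part of these regulators in the members' values was not tested. The shares called were 47.1% for p53, 50% for ATF4 and CHOP, 40% for FOXO and 63.6% for MCL1 and BIM turnover. Of 17 genes of p53 and its targets, a pathway known to induce *Pmaip1*, *Bbc3* and *Bax*, 7 were called higher and 1 lower (median log2 fold change 0.24). *Bbc3* and *Bax* themselves did not pass the test (log2 fold changes -0.14 and 0.11). *Cdkn1a* rose from 325 to 483 CPM, *Mdm2* from 95.8 to 141 and *Tnfrsf10b*, a death receptor gene, from 51.0 to 77.9 CPM, while *Trp53* itself was at 109 and 106 CPM. The 1 gene called lower was *Sesn1*, which fell from 26.6 to 17.8 CPM (log2 fold change -0.58, adjusted p = 0.0013 by edgeR). *Perp* had the largest rise of the list (log2 fold change 0.75, adjusted p = 0.0151 by edgeR), lost without the TGFβ library of 27851677 counts (0.0537). The number of the 17 called went from 8 to 5 without the vehicle library of 29296570 or 29331999 counts or the TGFβ library of 27851677 counts. In these fits 4461, 4988 and 4655 genes were called in all, beside 5828 with all libraries. *Pmaip1* is also a known target of ATF4 in the stress response to misfolded protein or lack of amino acids. Of 8 genes of the ATF4 and CHOP axis 4 were called higher and none lower (median log2 fold change 0.15), among them *Chac1*, which rose from 24.1 to 41.7 CPM (log2 fold change 0.79, adjusted p = 0.00166 by edgeR), and *Asns*, from 197 to 293 CPM. *Ddit3*, which encodes CHOP, did not pass the test (log2 fold change -0.13, adjusted p = 0.161 by edgeR).

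FOXO factors are known to switch on *Bcl2l11*, *Bbc3* and *Bmf*. Of 10 genes of FOXO factors and their targets 4 were called lower and none higher (median log2 fold change -0.11). *Trib1* was down from 49.1 to 29.3 CPM and *Klf2* from 66.3 to 49.9 CPM. Among the factors *Foxo4* fell from 33.8 to 27.2 CPM (log2 fold change -0.32, adjusted p = 0.00512 by edgeR), and *Foxo1* and *Foxo3* did not pass the test. Of 11 genes tested that act on the turnover or binding of MCL-1 and BIM, 5 were called higher and 2 lower (median 0.15). They include *Fbxw7*, whose product marks MCL-1 for breakdown (16.0 to 26.7 CPM, log2 fold change 0.74, adjusted p = 0.00043 by edgeR), and *Usp9x*, whose product protects MCL-1 (271 to 406 CPM, log2 fold change 0.58, adjusted p = 0.0037 by edgeR). Their known effects on MCL-1 are opposite, and both rose.

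Downstream of the pore, 3 of 14 genes of the apoptosome and caspases were called higher and 3 lower (median log2 fold change 0.08). The share called was 42.9%, near the 40.7% of all genes tested. *Cycs*, which encodes cytochrome c, rose from 9.79 to 14.8 CPM (log2 fold change 0.60, adjusted p = 0.00121 by edgeR) and *Casp9*, the caspase the apoptosome activates, fell by 0.32 on the log2 scale, from 27.8 to 22.3 CPM (adjusted p = 0.00842 by edgeR). The 6 calls of this list became 3 with DESeq2, and 3 without the vehicle library of 31072338 or 29331999 counts or the TGFβ library of 27851677 or 28894151 counts. Over all genes the calls went from 5828 to 5038 with DESeq2, and to 5096, 4988, 4655 and 4729 without these libraries. The inhibitor of apoptosis proteins, which block caspases or bind death receptor complexes, had 4 of 6 genes tested called (66.7%), all 4 lower (median log2 fold change -0.53). *Birc2* fell by 1.09 on the log2 scale, from 51.7 to 24.3 CPM (adjusted p = 1.36e-05 by edgeR), and *Birc3* by 0.84, from 30.6 to 17.1 CPM. *Birc5* fell by 0.87, from 4.13 to 2.25 CPM. It encodes survivin, which also acts in cell division, beside the fall of 4 of the 7 proliferation genes, whose part in its value was not tested.

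Of 7 death receptor and adaptor genes 1 was called higher, *Tnfrsf10b*, and 3 lower, with *Tnfrsf1a*, the TNF receptor gene, down from 283 to 197 CPM (median log2 fold change -0.09). Of 7 genes of outer membrane channels and cristae 3 were called higher and 1 lower (median 0.14), with *Dnm1l*, a fission gene, going from 94.0 to 110.0 CPM and *Vdac3* from 81.2 to 94.4 CPM. In both lists 57.1% were called, beside 40.7% of all genes tested.

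**Figure D5:**
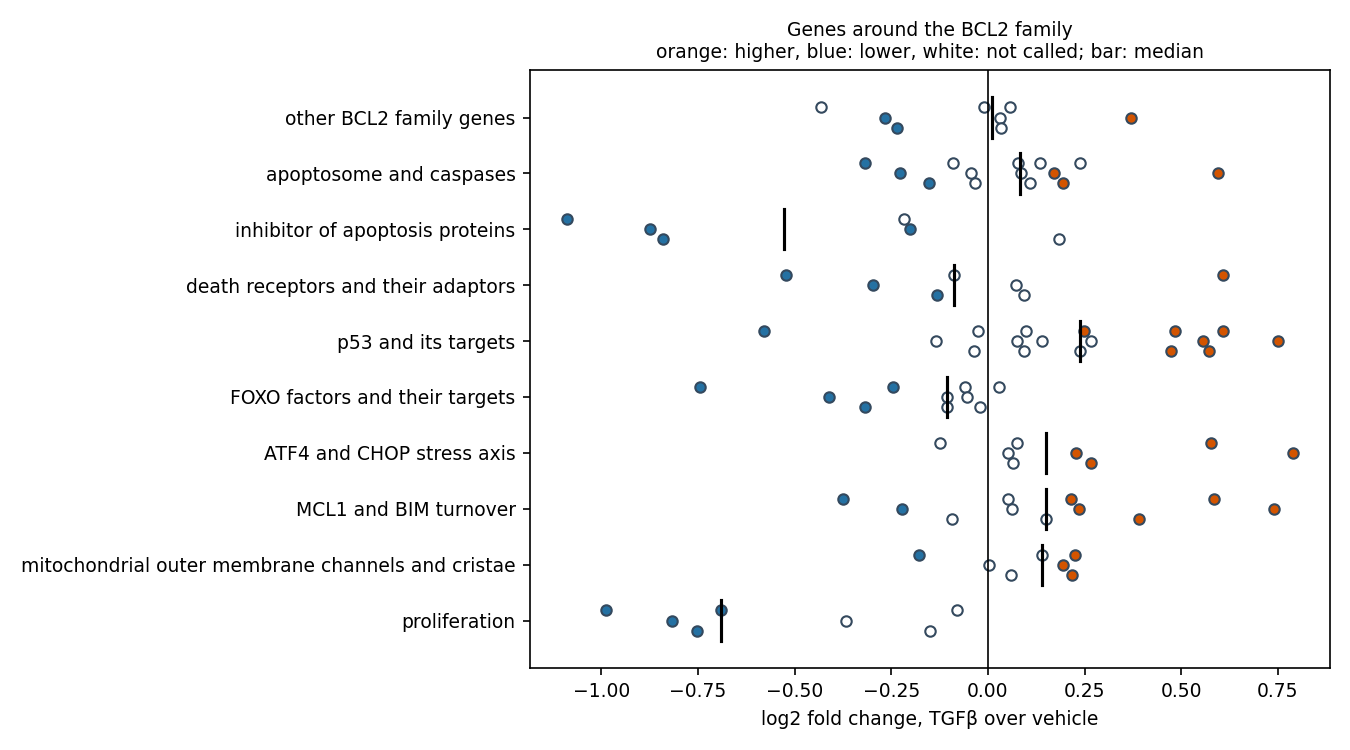
Log2 fold change (TGFβ over vehicle) of the genes in each list around the BCL2 family, with orange points for genes called higher and blue for lower (adjusted p under 0.05, edgeR), white for those not called and a bar at each list's median. The inhibitors of apoptosis have a median of -0.53 and the p53 list one of 0.24, beside -0.0013 over all genes tested.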

How the data were processed

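Poly(A) RNA was sequenced with a stranded kit (single-end reads of 75 bases) and aligned to mm10. Aligner, counter, annotation and use of strand are not given in the sources used here. The deposited table holds raw counts, as whole numbers, for each gene in each library. Its columns of the authors' own DESeq2 comparison (mean of normalized counts, fold changes, errors and p-values) were not used.

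From the counts, edgeR 4.0.16 (R 4.3.3) gave TMM factors, the filter on low counts (filterByExpr), CPM and the quasi-likelihood test over 14334 genes and all 6 libraries, with Benjamini-Hochberg adjustment and a threshold of 0.05. Standard errors are the fold change over the square root of F. Alternatives used DESeq2's size factors, upper quartile scaling, DESeq2 1.42.0, limma-voom (3.58.1), no filter, a filter of 1 CPM in 3 libraries, and each library left out. The test was also run on simulated counts in which few genes changed, and there more of its calls were false than the threshold of 0.05 aims at.

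The members, the lists, and the rule for genes named from them (the largest rise and the 2 largest changes past the threshold in each list, and the whole BCL2 family) were chosen with earlier results of these data known. *Cdkn1a*, *Mdm2*, *Sesn1*, *Trp53*, *Ddit3*, *Foxo1*, *Foxo3*, *Foxo4* and *Birc3* were named after their values were seen. The result for 1 gene that the rule takes in is not reported here. Libraries of 1 group differed by more than sampling noise. Depth was 27851677 to 31072338 counts per library. Since no source says how the replicates were separated, p-values measure only the spread between these libraries, which may be technical. Sequences are from RefSeq.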

Additional observations from a re-analysis of the deposited data

How the results depend on the processing

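Across the 12 alternative fits, 111 of 120 member values kept direction and call, *Pmaip1* and *Bcl2* in all, as did 310 of 324 values of the 27 other genes named by the rule. At an adjusted p of 0.01, 3595 genes were called (1855 higher, 1740 lower) and 2 members. Beyond a log2 fold change of 1, 971 genes (346 higher, 625 lower) and 1 member were called. The list counts at 0.01 were 1 for the other BCL2 family genes, 2 for apoptosome and caspases, 4 for p53, 4 for MCL1 and BIM turnover and 2 for outer membrane channels and cristae. Beyond a log2 fold change of 1 the count was 1 for inhibitors of apoptosis and 0 for the other BCL2 family genes, apoptosome and caspases, death receptors, p53, FOXO, ATF4 and CHOP, MCL1 and BIM turnover, outer membrane channels and proliferation. DESeq2 called 3 genes of the apoptosome and caspases, and 5038 genes in all.

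With 1 library left out, 3 to 6 members, 3 to 6 apoptosome and caspase genes and 5 to 9 p53 genes were called. Over all genes 4461 to 5449 were called in these fits, beside 5828 with all libraries. The fit with 3 members called, without the TGFβ library of 28894151 counts, called 4729 genes. The log2 fold changes spanned -0.36 to -0.21 for *Bcl2l1*, -0.18 to -0.14 for *Mcl1*, 0.17 to 0.25 for *Bak1* and -0.60 to -0.38 for *Bmf*. Small log2 fold changes changed sign for *Bcl2l2* (-0.016 to 0.080), *Bnip3* (-0.19 to 0.15, with 0.06 and 0.08 between) and *Bcl2l12* (-0.087 to 0.13, with -0.0085 and -0.0059 between), and the cause was not tested. Per kilobase of the longest transcript, the vehicle level was 4.84 CPM per kb for *Bcl2*, 50.7 for *Bcl2l1*, 2.61 for *Bcl2l11*, 76.5 for *Bax*, 14.1 for *Bid* and 12.5 for *Bbc3*, with *Bax* then above *Mcl1*. No paired analysis was possible because the columns of counts carry no replicate numbers. The lowest count of a member, 128, has a counting error of 8.84%, beside a biological coefficient of variation of 7.97% over all genes.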
